A study of Mus musculus with 16 samples.

Results

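RNA bound to the tagged ribosomes of Nav1.8-expressing sensory neurons was compared with total RNA of the same dorsal root ganglia in 8 pools of mice. The comparison takes all 16 libraries of the 16 in the series: 8 from pulldowns of tagged ribosomes (IP) and 8 of total RNA (IN), matched by pool. The mice were naive, aged 8 to 12 weeks and on a C57BL/6J background, and all carried Nav1.8Cre and the Rosa26fstrap allele, IN samples included. Each pool held ganglia of 3 mice of one sex, with 4 female pools (F1 to F4) and 4 male pools (M1 to M4), and gave 1 IN and 1 IP library. Total RNA came from all cells of the ganglion, and the tag from neurons in which the Nav1.8 promoter has driven Cre at any time. In pooled tissue, fewer cells of a type and less RNA per cell cannot be told apart.

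In translating ribosome affinity purification, Cre switches on a fusion of EGFP with the large-subunit ribosomal protein L10a. Antibodies against GFP then pull down ribosomes of the chosen cells together with the RNA they hold. An mRNA is high in IP relative to IN when the chosen cells hold more of it, when more of its copies sit on ribosomes, or both, and this design measures their product. RNAs that ribosomes do not decode, such as spliceosomal RNAs, nuclear long noncoding RNAs and transcripts of mitochondria, which have their own ribosomes, can be carried along in a pulldown, as can mRNAs of other cells. Both kinds of library were made with depletion of ribosomal RNA, so RNAs without a poly(A) tail were kept.

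The deposited values carry the heading Coverage and were read as TPM, a unit corrected for gene length, because each library sums to 1000000. They were put on one scale across libraries with median-of-ratios factors from the genes tested. Changes are log2 differences of scaled TPM with 1 added, IP minus IN, each with the standard error (SE) of a limma fit with the pool as a block. Of 53379 genes, 16099 reached a mean of 1 TPM in either fraction and were tested. This filter used unscaled TPM, and the factors that values were divided by were 0.375 to 0.532 in IN and 1.65 to 2.69 in IP. On the reported scale the bar was thus lower in IP. At an adjusted p under 0.05, 79.4% of them were called, 40.5% higher in IP and 38.9% lower, so the count of a gene group is to be read against these shares. The balance rests on the scaling: of the genes called, 51.0% were higher, against 94.0% without scaling, 61.1% with quantile normalization and 35.1% with scaling to the protein-coding total, which moved the median gene by 1.82, 0.13 and -0.19 on the log2 scale. Changes are therefore relative to the median gene, and so are the values given below for gene lists and single genes under other scalings. Counts over all genes under other scalings, 2-fold counts included, are not, unless this is stated. Values under other filters are not either, and the median gene moved by 0.13 with no filter and by -0.11 with a filter at a mean of 5. The balance moved with the filter as well: with no filter on low values, 39.7% of the genes called were higher. Of the 67 gene lists, the side with more calls turned in 11 with quantile normalization, in 4 without scaling and in 0 with the protein-coding total. The IP library of F2 stood apart, with nuclear protein-coding genes at 45.0% of its TPM and satellite glia markers at a summed level of 460.1, against 162 to 321 in the other IP libraries, and without this pool 6519 genes were higher and 6274 lower, against 6514 and 6269 with it. For 48.4% of the genes the 8 IP values did not overlap the 8 IN values. Among nuclear protein-coding genes 79.4% were called, 37.6% higher and 41.8% lower, with a median change of -0.03.

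The marker of the tagged neurons and that of satellite glia moved as the labels imply. Scn10a, which encodes the Nav1.8 channel of pain-sensing neurons, was at 108 to 143 in IN, with a median of 122. It was at 282 to 444 in IP, with a median of 388. The groups did not overlap, and the change was 1.60 ± 0.08 (limma adjusted p = 7e-08). Fabp7, a fatty acid binding protein of satellite glia, was at 122 to 167 in IN, with a median of 149. It was at 8.98 to 30.9 in IP, with a median of 13.2, again without overlap, and fell by 3.26 ± 0.18 on the log2 scale (limma adjusted p = 9.4e-08). Fabp7 was above 0 in every IP library.

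**Figure D1:**
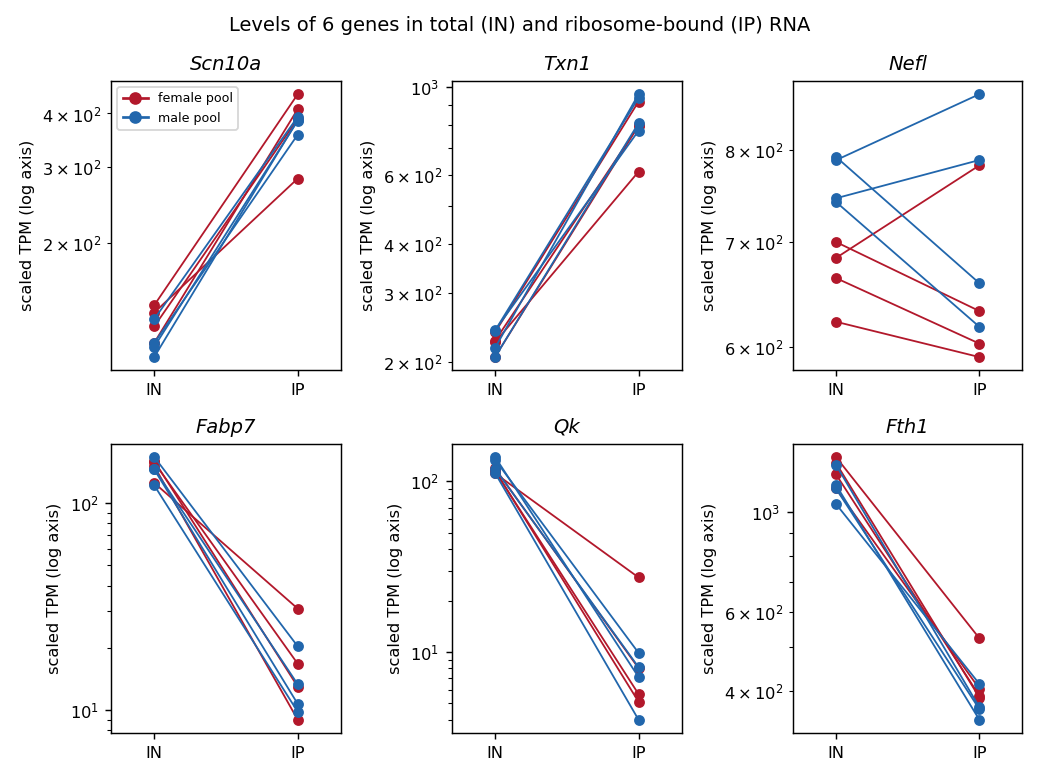
Scaled TPM of 6 genes in the 8 IN and 8 IP libraries (log axis), 1 point a library and 1 axis range a panel, with a line joining the libraries of a pool and colours for sex. Scn10a and Txn1 are higher in IP in each pool, and Fabp7, Qk and Fth1 are lower, while the ranges of Nefl overlap.

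The 3 RNAs below, none of them an mRNA, stand for classes that fell, and their sequences make plain what kind of molecule was low in the pulldown. They are read from the GENCODE M21 transcripts (GRCm38) in the sense direction, with T for U. Rnu2-10 encodes U2, the spliceosomal RNA that pairs with the intron branch point, and the capitals mark its branch point pairing stretch (GTAGTA, from base 33). Snord17 is a nucleolar guide RNA, and capitals mark its box C (TGATGA, from base 7) and its last CTGA, the box D (from base 231). The tRNA mt-Tl1 carries leucine to mitochondrial ribosomes. They lie at chr11:101658238-101658428 (plus strand), chr2:144265979-144266216 (minus strand) and chrM:2676-2750 (plus strand).
Rnu2-10: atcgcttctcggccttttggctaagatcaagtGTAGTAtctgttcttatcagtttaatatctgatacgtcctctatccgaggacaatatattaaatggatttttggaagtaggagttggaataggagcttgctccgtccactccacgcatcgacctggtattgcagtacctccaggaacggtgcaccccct
Snord17: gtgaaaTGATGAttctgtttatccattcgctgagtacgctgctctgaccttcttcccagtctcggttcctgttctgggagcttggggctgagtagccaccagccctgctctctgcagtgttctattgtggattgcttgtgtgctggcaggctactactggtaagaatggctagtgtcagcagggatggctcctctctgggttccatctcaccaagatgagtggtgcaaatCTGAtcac
mt-Tl1: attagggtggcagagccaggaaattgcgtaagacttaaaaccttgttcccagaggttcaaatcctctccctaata

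Spliceosomal, nucleolar and mitochondrial RNAs were far lower in IP. Rnu2-10 was at 398 to 527 in IN, with a median of 493. It was at 7.30 to 132 in IP, with a median of 18.96, and fell by 4.26 ± 0.35 on the log2 scale without overlap (limma adjusted p = 1.4e-06). The annotation holds 5 U2 entries of 191 bases, of which 4 have the sequence printed above and the other differs from it at 1 base, so reads cannot be assigned to one of them. Of 37 spliceosomal and related small nuclear RNAs, 36 fell and 0 rose (median -2.29). Snord17 fell from a median of 64.2 to 12.8, and of 101 small nucleolar and Cajal body RNAs 71 fell and 1 rose (median -1.01). The ribozymes Rpph1 and Rmrp, the RNA parts of RNase P and RNase MRP, fell from a median of 17070 to 939 and from 3753 to 352.

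Mitochondrial tRNAs fell with the rest of the mitochondrial genome. All 21 tested were lower (median -2.95), and mt-Tl1 went from 61.6 to 173 in IN, with a median of 107, to 1.29 to 13.9 in IP, with a median of 7.14. The 13 mitochondrial mRNAs were lower as well (median -5.23), a larger median fall than that of their tRNAs. Both medians were negative in each pool, from -3.62 to -1.98 for tRNAs and from -6.94 to -2.88 for mRNAs. Mitochondrial mRNAs fell least in F2, and the tRNAs least in M4. Whether the 2 classes fell by different amounts was not tested.

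Most long noncoding RNAs known from the nucleus fell. Of 12 listed long noncoding RNAs, most of them nuclear, 10 fell and 1 rose (median -1.79). Neat1, the scaffold of nuclear paraspeckles, fell from a median of 25.99 to 3.10, and Miat from 28.1 to 4.84. Rian, an imprinted RNA that is processed into small RNAs, fell by 1.99 ± 0.14 on the log2 scale. Norad (listed as 2900097C17Rik), a cytoplasmic RNA that binds Pumilio proteins, fell by 1.19 ± 0.07, and Pvt1 rose by 0.30 ± 0.04. Over all long intergenic noncoding RNAs, 128 of 249 fell and 59 rose (median -0.21). Entries of the TEC type, mostly unspliced gene models awaiting experimental evidence, had 110 of 132 lower (median -1.36), whereas processed pseudogenes, copies of mRNAs that share reads with their parents, had 1428 of 1978 higher (median 0.30). A pseudogene value is therefore uncertain.

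The make-up of the libraries differed with these classes. Nuclear protein-coding genes held 11.5% ± 1.31 (SD, n = 8) of the deposited TPM in IN and 67.6% ± 11.8 in IP, higher in 8 of 8 pools (exact paired sign-flip test, two-sided p = 0.00781, the smallest that 8 pairs allow, 0.00898 adjusted over the 23 shares tested). The mitochondrial genome held 11.3% ± 2.54 in IN and 1.99% ± 1.88 in IP. Most of the remainder in IN belonged to 7SL RNA of the signal recognition particle and to short entries annotated as miRNAs, of which 4 of the 5 most abundant overlap its genes (miRNA entries 59.5% of the total in IN and 17.0% in IP). Within IN, pools F4 and M2 differed from the others, with 44.0% and 43.2% of the total in miRNA entries against 63.1% to 66.7%, and 25.6% and 25.7% in the miscellaneous RNA class, which holds 7SL and 7SK, against 10.3% to 11.1%. Within IP, F2 and F4 had the lowest protein-coding shares, 45.0% and 58.0%, and the highest mitochondrial shares, 5.05% and 4.88%. Between 12737 and 13846 genes reached 1 TPM in IN and between 15377 and 16050 in IP. These counts are of unscaled TPM, and on the scaled values the bar was lower in IP. They do not show that IP held RNA of more genes. The shares above are of unscaled TPM as well. A class can thus hold a larger share in IP and still be lower after scaling, as small nucleolar RNAs were (0.0714% in IN and 0.155% in IP).

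**Figure D2:**
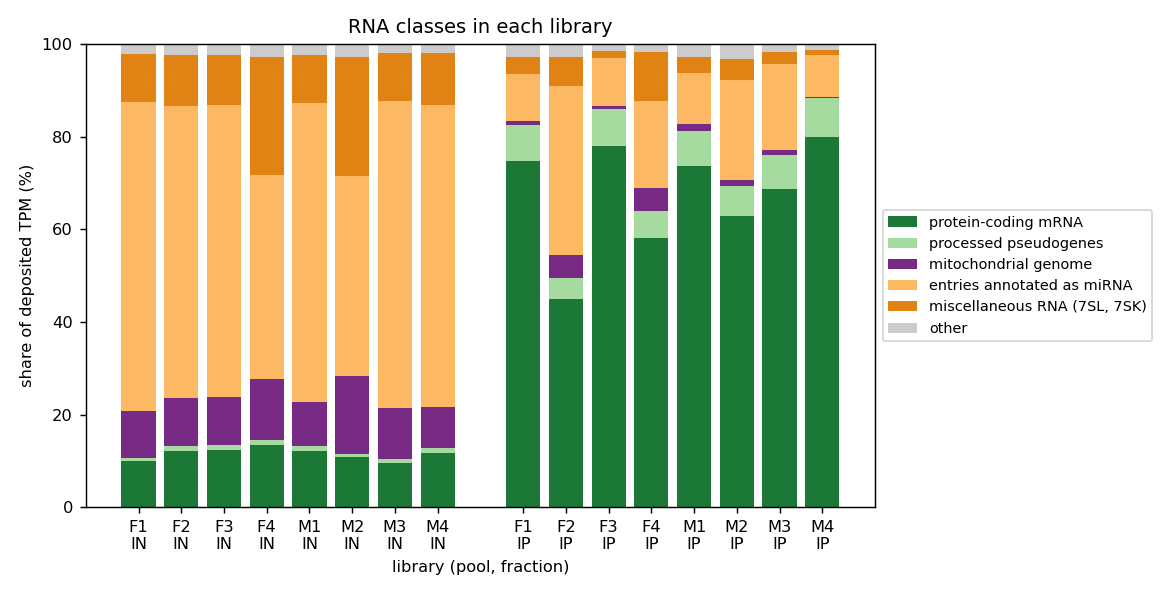
Share of the deposited TPM held by RNA classes in each of the 16 libraries, as stacked bars that start at 0 and add to 100%. Protein-coding mRNA is the smaller part of each IN library and the largest part of each IP library, with the lowest IP shares in F2 and F4.

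Among sensory neurons, markers of unmyelinated pain and itch neurons mostly rose and those of myelinated neurons fell. All 10 nonpeptidergic nociceptor genes tested were higher in IP (median 1.48), and so were 10 of 11 peptidergic genes (median 1.01). Plxnc1, a semaphorin receptor, rose by 1.21 ± 0.06 on the log2 scale. The itch receptor genes Mrgpra3 and Mrgprx1 rose from a median of 5.37 to 21.6 and from 5.10 to 19.6. Both belong to a family of near copies, so their reads may be shared. Of the 5 genes listed for these neurons 3 rose and 0 fell (median 0.46), against 3 higher and 2 lower without scaling. Of 9 genes of the Nppb class of itch neurons, 8 rose (median 0.97), with F2rl2 at 1.49 ± 0.06 and the oncostatin receptor Osmr at 0.68 ± 0.07.

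Of 4 tested genes of cold-sensing neurons 3 fell and 1 rose (median -0.97). Trpm8, the menthol and cold channel, was at 7.43 to 9.18 in IN, with a median of 8.66. It was at 4.67 to 7.68 in IP, with a median of 5.45, so the ranges overlapped, and its change was -0.51 ± 0.06 (limma adjusted p = 3.1e-05). Foxp2, a transcription factor of the same list, fell from a median of 4.42 to 0.195. Cdh8, a cadherin, rose by 0.35 ± 0.06. For the unmyelinated touch neurons 5 of 7 genes rose and 1 fell (median 0.60), with Fam19a4, a secreted modulator, at 0.76 ± 0.06. In contrast 5 of 5 genes of A-delta touch neurons and 14 of 15 of large-diameter neurons fell (medians -0.66 and -1.27). Nefh, the heavy neurofilament, was at 193 to 247 in IN, with a median of 223. It was at 103 to 208 in IP, with a median of 139, with overlap, and its call was lost without scaling (-0.21, limma adjusted p = 0.231). The tally of the unmyelinated touch list became 4 higher and 3 lower with quantile normalization, and that of the A-delta list 3 lower without scaling.

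Markers of other cells were lower in IP but not gone. Of 12 satellite glia genes and 12 Schwann cell genes tested, each was lower (medians -3.00 and -2.59). The summed level of the satellite glia list was 1647 to 2034 in IN and 162 to 460 in IP, and that of the Schwann list 2506 to 3718 in IN and 406 to 1062 in IP. Fibroblast genes summed to 994 to 1329 in IN and 93.7 to 286 in IP, and macrophage genes to 90.0 to 146 in IN and 8.00 to 30.8 in IP. In the IP of all 4 lists F2 had the highest sum, and no tested gene of these lists was at 0 in all 8 IP libraries. Apoe, a lipid carrier of glia, fell from a median of 619 to 56.96, and Sparc, a matrix protein, from 439.8 to 36.1. Pmp22, a myelin protein, fell from 1281 to 424. Of 29 collagen genes 28 fell and 0 rose (median -2.04). The part of these cells in the other results was not tested.

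The largest movers also included proteins of quite different function, several of them known from particular cell types. The part of cell content in their changes was not tested. Txn1, thioredoxin, a redox enzyme of the cytosol, was at 206 to 240.5 in IN, with a median of 225. It was at 610.3 to 961 in IP, with a median of 806, a rise of 1.87 ± 0.08 on the log2 scale with no overlap (limma adjusted p = 4.4e-08). Fxyd2, a subunit of the sodium pump, rose from a median of 197 to 679.8, and Tmem45b, a membrane protein of nociceptors, from 42.1 to 160.5. Syt5, a calcium sensor of secretory vesicles, rose from 17.1 to 66.5. In the other direction Qk, an RNA-binding protein of myelinating glia, was at 112 to 139 in IN, with a median of 117. It was at 3.99 to 27.3 in IP, with a median of 7.56, and it fell by 3.76 ± 0.23 on the log2 scale (limma adjusted p = 1.9e-07). Timp3, an inhibitor of matrix proteases, fell from 94.5 to 7.89, Lox, which crosslinks collagen, from 35.04 to 2.05, Pmp2, a lipid carrier of myelin, from 46.9 to 3.44, and Apod, a lipid carrier of Schwann cells and fibroblasts, from 508 to 43.2.

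Several abundant mRNAs differed little between the fractions. Nefl, the light neurofilament, was at 623 to 792 in IN, with a median of 721. It was at 592 to 868 in IP, with a median of 646, and the 95% interval of its change was -0.22 to 0.11. Atp1b1, a subunit of the sodium pump, had an interval of -0.17 to 0.04, at medians of 395 and 379. Ckb, creatine kinase of brain, had -0.18 to 0.18, and Prkar1a, a regulatory subunit of protein kinase A, -0.09 to 0.09. These genes were chosen because their intervals lie within 0.25 of 0, and they are equal only on the scale set by the median gene. The most abundant mRNAs in IP were of another kind. Tppp3, a tubulin-binding protein, rose from a median of 561 to 1345, Tmsb4x, which binds actin monomers, from 927 to 1292, and Tuba1a, an alpha tubulin, from 423 to 955.

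**Figure D3:**
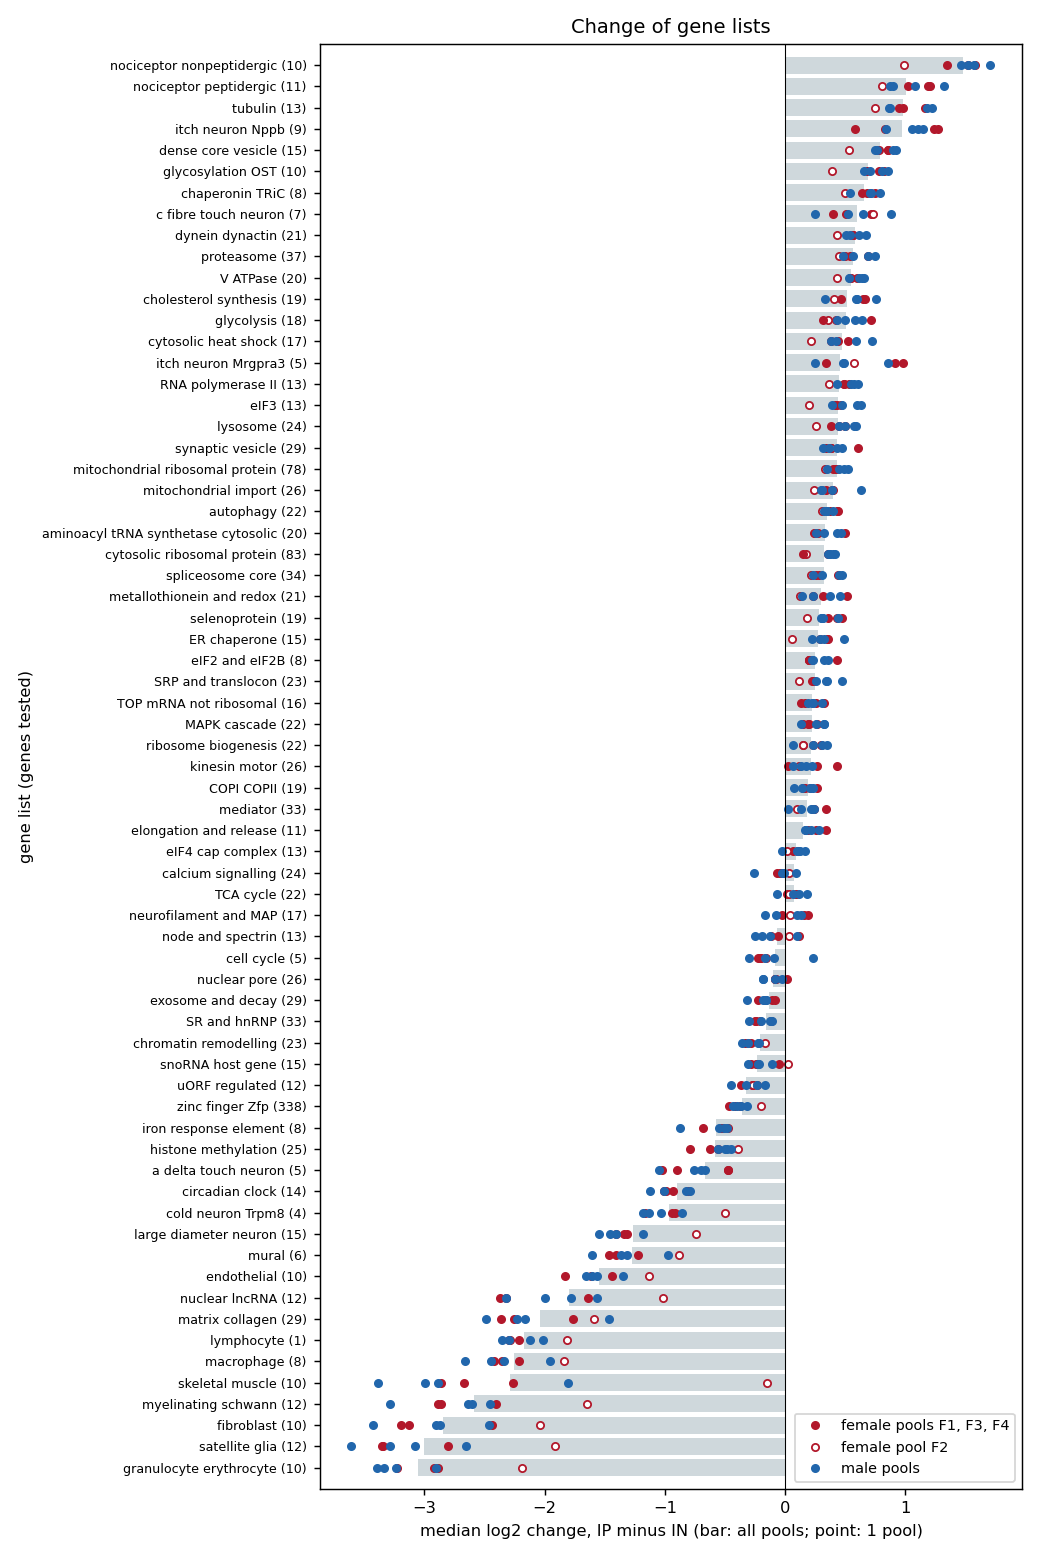
Median log2 change (IP minus IN) of the tested members of 67 gene lists (bars start at 0), with 1 point for the median in each of the 8 pools. Lists of other cell types and nuclear RNA lie to the left, nociceptor, tubulin and vesicle lists to the right, and F2 (open points) lies nearest to 0 in 23 of the 30 lists whose median is at least 0.5 either way.

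Genes of the translation machinery had more rises than falls in IP, by small amounts that depended on the scaling. Proteins of the cytosolic ribosome had 63 of 83 genes higher and 1 lower (median 0.32, against 13 higher and 28 lower, with a median of -0.05, under quantile normalization). Of 78 nuclear genes for mitochondrial ribosomal proteins 64 rose and 4 fell (median 0.43), with Mrpl20 at 0.98 ± 0.06 and Mrpl54 at 0.99 ± 0.05. For eIF3, the large scaffold of initiation, 10 of 13 subunits rose and 1 fell (median 0.44, and 6 and 3 with quantile normalization). Eif3g rose from a median of 29.4 to 51.98, and the loosely held subunit Eif3j1 fell from 8.46 to 6.30, a call that was lost without scaling (-0.19, limma adjusted p = 0.156). Of 13 genes of the cap complex 5 rose and 3 fell (median 0.09), against 1 higher and 8 lower with quantile normalization. The share that rose, 38.5%, was near the 37.6% of all protein-coding genes. The share that fell, 23.1%, was below their 41.8%. In the cap complex the helicase Eif4a1 rose by 0.82 ± 0.10, while the repressor Eif4ebp2 and the poly(A)-binding protein Pabpc1 fell, with log2 changes of -0.76 ± 0.06 and -0.66 ± 0.04, the latter at -0.24 without scaling (limma adjusted p = 0.133). Of 11 elongation and release factors 5 rose and 0 fell (median 0.15), against 3 and 5 with quantile normalization. The elongation factor Eef1a2, the form of neurons and muscle, rose from a median of 228 to 366, whereas Eef1a1, the form of most cells, was at 497 in IN and 560.4 in IP and did not pass (limma adjusted p = 0.057), though it did without F2 (0.0157) and without F4 (0.0343), with array weights (0.0121), with no filter (0.00703) and without scaling (0.00475). Of 20 cytosolic aminoacyl-tRNA synthetases 17 rose and 1 fell (median 0.33), against 8 and 4 with quantile normalization. Gars, the glycine enzyme that is mutated in an inherited neuropathy, rose most, from 64.4 to 119.7. Of 16 listed mRNAs outside the ribosome that share the TOP element of ribosomal protein mRNAs, 11 rose and 2 fell (median 0.23), against 1 and 8 with quantile normalization.

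The mRNAs of ribosomal proteins are known for a start of C followed by a run of pyrimidines, the TOP element, through which their translation is controlled. The windows below run from 15 bases before the start to 15 bases from it on, from the RefSeq start table (GRCm38.p6). Only ribosomal protein genes with a C and 4 more pyrimidines at the start were considered, with a chromosome left out. The 4 most abundant of these are shown, and all 4 rose with the scaling used here. Capitals mark the run of C and T that begins at the start.
Rplp2: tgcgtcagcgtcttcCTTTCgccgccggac
Rpl38: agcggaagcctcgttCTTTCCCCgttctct
Rps21: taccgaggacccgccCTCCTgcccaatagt
Fau: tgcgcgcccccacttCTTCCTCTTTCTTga
They lie at chr7:141447636-141447665, chr11:114668565-114668594, chr2:180257364-180257393 and chr19:6057932-6057961, all on the plus strand. Rpl38 was at 77.5 to 102 in IN, with a median of 87.1. It was at 107 to 154 in IP, with a median of 136, a rise of 0.64 ± 0.06 without overlap (limma adjusted p = 3.1e-06). Rplp2 rose by 0.57 ± 0.06 and Rps21 by 0.59 ± 0.07, without overlap, and Fau by 0.57 ± 0.09, with overlap. The calls of Rplp2, Rps21 and Fau were lost with quantile normalization, where the changes were 0.06, 0.10 and 0.09 (limma adjusted p = 0.291, 0.136 and 0.264). A C at the start and 4 more pyrimidines were found at the annotated start of 15 of 62 ribosomal protein genes with a start in the table (24.2%), of 3.03% of 9917 other protein-coding genes and of 2.51% of all 32851 starts. The median change was 0.36 for ribosomal protein genes with this start and 0.33 for those without it, and -0.01 and -0.03 for other genes. The annotated start of many ribosomal protein genes thus lacked these letters, and no difference between genes with and without them was tested.

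Among mRNAs with known regulation of translation, that of the ferritin heavy chain fell. How much of the changes of these mRNAs came from cell content and how much from translation was not tested. Of 8 genes listed for an iron-responsive element 6 fell and 0 rose (median -0.57), against 3 and 1 without scaling. Fth1, the heavy chain of ferritin, was at 1045 to 1330 in IN, with a median of 1185. It was at 345 to 524 in IP, with a median of 388, without overlap (change -1.59 ± 0.07, limma adjusted p = 5.2e-08). Ftl1, the light chain, fell from a median of 126 to 73.05, a call that was lost without scaling (-0.32, limma adjusted p = 0.062), and Epas1, a hypoxia factor, fell from 30.6 to 7.99. Of 12 genes with regulatory upstream reading frames 7 fell and 1 rose (median -0.32, and 4 and 3 without scaling), with the interferon-related gene Ifrd1 at -1.08 ± 0.10 and the stress phosphatase subunit Ppp1r15b at -0.61 ± 0.04. Selenoprotein genes mostly rose, 14 of 19 with 3 lower (median 0.28), and 8 and 3 with quantile normalization. The members moved far apart, since Selenow rose from 191 to 386 and Selenop, which carries selenium between cells, fell from 177 to 17.7.

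Genes of the secretory pathway rose in most groups. Of 10 genes of the oligosaccharyltransferase, which attaches sugars to new proteins, 8 rose and 1 fell (median 0.69). With quantile normalization 8 rose and 2 fell (median 0.39). Tusc3 rose from a median of 34.3 to 87.4, while its paralog Magt1 fell from 13.02 to 9.52, a call that was lost without scaling (-0.17, limma adjusted p = 0.24). Of 20 genes of the V-ATPase, the proton pump of vesicles and lysosomes, 16 rose and 2 fell (median 0.55). Quantile normalization gave 11 higher and 2 lower (median 0.20). Atp6v0b, a ring subunit, was at 68.4 to 116 in IN, with a median of 102. It was at 181 to 258 in IP, with a median of 243, without overlap (change 1.28 ± 0.10, limma adjusted p = 6.3e-07). Of 15 genes of dense core vesicles, which store peptides, 13 rose and 2 fell (median 0.79). Under quantile normalization 10 rose and 2 fell (median 0.36). The granins Scg2 and Scg3 rose from 89.7 to 252 and from 182 to 536, and Pcsk1n, an inhibitor of prohormone convertase, from 54.3 to 212. Pcsk1, the convertase itself, fell from 17.5 to 12.6, also with its call lost without scaling (-0.13, limma adjusted p = 0.368). For coat proteins of COPI and COPII 10 of 19 rose and 5 fell (median 0.19), against 6 and 11 with a median of -0.19 under quantile normalization. Cope rose by 0.82 ± 0.09, and Copz2 and Sec24d fell, with log2 changes of -1.85 ± 0.09 and -1.25 ± 0.07.

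Genes of the axon and the synapse held members with opposite changes. Of 13 tubulin genes 11 rose and 1 fell (median 0.98). Tubb2b, a neuronal beta tubulin, was at 87.7 to 106 in IN, with a median of 92.1. It was at 247 to 339 in IP, with a median of 293, without overlap, whereas Tubb6, a beta tubulin of many tissues, fell from a median of 4.10 to 0.864. Of 21 genes of dynein and dynactin, which carry cargo towards the cell body, 17 rose and 3 fell (median 0.58), against 11 and 5 with quantile normalization. Dctn3, a dynactin subunit, rose from 58.8 to 129, and the adaptor Bicd1 fell from 28.8 to 12.96. Kinesin genes, whose motors mostly run the other way, had 14 higher and 10 lower of 26 (median 0.21), against 9 and 11 with a median of -0.05 under quantile normalization. The light chain Klc1 rose from 329.8 to 614, and Kif1c fell from 16.4 to 3.37. Prph, the intermediate filament of small sensory neurons, rose from 365 to 1015.

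Synaptic vesicle genes gave 18 higher and 7 lower of 29 (median 0.43), against 12 and 12 with quantile normalization. Slc17a7, the vesicular glutamate transporter VGLUT1, was at 30.4 to 37.95 in IN, with a median of 34.5. It was at 6.77 to 11.5 in IP, with a median of 8.60, without overlap, and fell by 1.87 ± 0.08 on the log2 scale (limma adjusted p = 4.4e-08). Vamp1, a vesicle fusion protein, fell from a median of 124 to 64.3, and Syt9 and Stx1a rose by 1.02 ± 0.05 and 1.05 ± 0.06. At the node of Ranvier and the spectrin skeleton 4 genes rose and 5 fell of 13 (median -0.07), against 6 and 2 with a median of 0.30 without scaling. L1cam, an adhesion molecule of unmyelinated axons, rose from 93.6 to 224, while the spectrin Sptb and the nodal adhesion molecule Nfasc fell from 22.1 to 10.1 and from 42.95 to 23.3. Of 24 calcium signalling genes 10 rose and 10 fell (median 0.08). This is 41.7% each way, near the 40.5% higher and 38.9% lower of all genes tested. The kinase Camk2a rose from 22.97 to 59.2, and the calcium release channels Itpr1 and Itpr3 fell from 18.9 to 3.89 and from 15.9 to 3.42. Under quantile normalization 4 genes of this list were higher and 14 lower, with a median of -0.32.

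Genes of protein folding and breakdown mostly rose, by smaller amounts under quantile normalization. Of 37 proteasome genes 35 rose and 1 fell (median 0.56), and the pool medians were 0.45 to 0.75. Psmb5, a catalytic subunit, was at 39.8 to 46.1 in IN, with a median of 42.5. It was at 67.7 to 95.6 in IP, with a median of 83.3, without overlap (change 0.94 ± 0.05, limma adjusted p = 1.2e-07). The gene that fell was Psmb9, a subunit of the immune proteasome, from a median of 1.23 to 0.860, and its call was lost in several alternatives. All 8 genes of TRiC, the chamber that folds actin and tubulin, rose (median 0.65), led by Cct3 from 42.5 to 94.99. Of 17 cytosolic heat shock genes 13 rose and 2 fell (median 0.48), with Hsp90aa1 at 1.05 ± 0.06. Of 24 lysosome genes 18 rose and 4 fell (median 0.44). The protease Ctsl rose from 158 to 504, and Npc1, which exports cholesterol, fell from 13.5 to 8.77. Of 22 autophagy genes 15 rose and 2 fell (median 0.34), with Map1lc3a at 1.02 ± 0.05 and Wipi1 at -1.51 ± 0.08. With quantile normalization the counts higher and lower were 25 and 0 for the proteasome, 6 and 0 for TRiC and 11 and 4 for heat shock genes. They were 14 and 7 for the lysosome and 13 and 5 for autophagy, and the medians of these lists were 0.13 to 0.31.

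Metabolic genes rose in several pathways. Of 18 entries of glycolysis 12 rose and 3 fell (median 0.51), against 9 and 5 with a median of 0.16 under quantile normalization. The lactate dehydrogenases moved in opposite directions: Ldha, the form that favours lactate, rose from a median of 134 to 269.9, and Ldhb fell from 137 to 55.1. Hk2, the inducible hexokinase, fell from 2.60 to 1.12. Of 19 genes of cholesterol synthesis 13 rose and 3 fell (median 0.52, and 10 and 5 with a median of 0.22 under quantile normalization). Dhcr7, the last step of one branch, was at 21.5 to 33.7 in IN, with a median of 23.4. It was at 38.05 to 83.3 in IP, with a median of 56.4, without overlap (change 1.17 ± 0.12), and Lss, which closes the sterol rings, fell from a median of 9.19 to 4.74. Of 26 genes of mitochondrial import 18 rose and 2 fell (median 0.40), with Timm13 at 0.92 ± 0.06. The tally of this list with quantile normalization was 14 higher and 4 lower (median 0.27). Metallothioneins, which bind zinc and copper, fell, with Mt1 from 39.3 to 7.48 and Mt2 from 25.5 to 2.98, while Sod1, superoxide dismutase, rose from 153 to 279.

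Genes of chromatin and transcription factors were mostly lower. Of 25 genes of histone methylation 21 fell and 2 rose (median -0.58), against 13 and 3 without scaling. Kmt2e was at 13.8 to 16.8 in IN, with a median of 15.01. It was at 4.18 to 8.03 in IP, with a median of 4.87, without overlap, and fell by 1.40 ± 0.09 on the log2 scale (limma adjusted p = 2e-07). Ezh2, the Polycomb methyltransferase, fell from a median of 5.75 to 0.566. Of 338 zinc finger genes with a Zfp symbol, 239 fell and 29 rose (median -0.36), against 161 and 69 with quantile normalization. This list is by name and holds genes that are not transcription factors, such as Zfp36l1 and Zfp36l2, which destabilise mRNA and had log2 changes of -2.54 ± 0.12 and -2.28 ± 0.12. Of 14 clock genes 10 fell and 3 rose (median -0.90). Nr1d2, a nuclear receptor that represses clock genes, fell from 25.7 to 4.55 and Hlf from 7.74 to 0.598, while the repressor Cry1 rose by 0.44 ± 0.05. Of 23 chromatin remodelling genes 14 fell and 4 rose (median -0.21), against 5 and 7 with a median of 0.09 without scaling. Chd7 fell from 4.66 to 0.781, and Smarcb1, a core subunit of the BAF complex, rose from 13.9 to 23.1.

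RNA processing genes moved both ways. Of 33 SR and hnRNP genes 16 fell and 7 rose (median -0.16), against 5 and 11 with a median of 0.18 without scaling. Srsf11 fell from a median of 32.8 to 15.7, and Hnrnpc rose from 43.9 to 65.3, a call that was lost with quantile normalization (0.12, limma adjusted p = 0.253). Among core spliceosome genes 23 of 34 rose and 8 fell (median 0.32), against 16 and 7 with a median of 0.14 under quantile normalization. Snrpd2, part of the Sm ring, rose by 0.76 ± 0.05, while the U1 protein Snrnp70 and the U1-associated protein Luc7l2 fell, with log2 changes of -0.98 ± 0.11 and -1.70 ± 0.18. Of 13 RNA polymerase II genes 10 rose and 0 fell (median 0.45), with the small subunit Polr2l from 9.42 to 22.8. Mediator genes gave 16 higher and 8 lower of 33 (median 0.18), with Med11 at 1.07 ± 0.10 and the kinase module subunit Med13 down from a median of 13.7 to 6.12. Of 29 genes of the exosome and RNA decay 14 fell and 6 rose (median -0.13), against 9 and 9 with a median of 0.02 without scaling. Among them the nonsense-mediated decay factors Upf1 and Smg1 had opposite changes, 0.66 ± 0.06 and -1.24 ± 0.09.

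Across protein-coding genes the change went with the length of the transcript. The 12902 genes were divided into 4 groups of equal size by the longest annotated transcript. In the group up to 2258 bases 57.7% rose and 23.8% fell (median 0.27), and in the group from 4927 bases 19.0% rose and 62.6% fell (median -0.37). Both middle groups had medians of 0.04 and -0.08. The order of the shortest and longest group was the same in each of the 8 pools, with medians of 0.17 to 0.32 for the shortest and -0.47 to -0.23 for the longest. The Spearman correlation across genes was -0.33 for transcript length, -0.26 for the span of the gene, -0.23 for coding length and -0.15 for the number of exons, and it was 0.20 for the level in IN. Genes share libraries and are not independent, so these values are descriptions. Long span went with lower values among genes below and above the median level alike: from the shortest to the longest group the median went from 0.02 to -0.56 below it and from 0.45 to -0.09 above it. RNA quality and fragment length of the libraries were not measured here. The members of several groups above differ in length too, from short subunits such as Polr2l and Snrpd2 to long genes such as Chd7 and Kmt2e, and the part of length in the group medians was not tested.

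**Figure D4:**
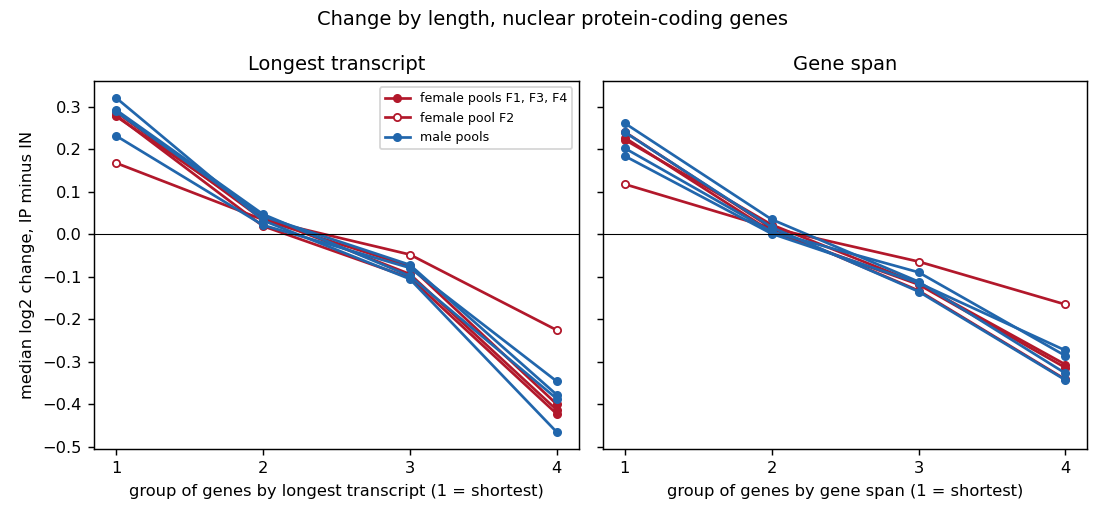
Median log2 change (IP minus IN) of nuclear protein-coding genes in 4 groups of equal size by the longest annotated transcript (left) and of the gene span (right), with 1 line for each of the 8 pools. In each pool the shortest group is above 0 and the longest below it, and F2 has the flattest line.

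The size of the changes differed between pools. Of the 30 gene lists with a median of at least 0.5 either way, the smallest size was in F2 for 23, and the largest in M4 for 10 and in M3 for 9. In F2 the median of the 10 skeletal muscle genes was -0.15, against -3.39 to -1.80 in the 7 remaining pools. Muscle genes summed to 249 in the IP of F2 and to 6.67 to 56.9 in the other IP libraries, and to 52.8 to 535 in IN. Acta1, skeletal muscle actin, had a change of -0.80 in F2 and of -3.48 to -2.33 in the others. Muscle is not part of the ganglion, and how its RNA came into a library was not tested.

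Single genes also had pools that stood apart. Chmp1b, a membrane-remodelling protein of the ESCRT-III family, was at 15.3 to 18.4 in IN, with a median of 16.2. It was at 0.857 to 12.3 in IP, with a median of 11.1, with changes of -3.35 in F4 and -2.97 in M3 and of -0.66 to -0.35 in the other pools. Lrrc8d, a subunit of the volume-regulated anion channel, rose in the fit over 8 pools (1.20 ± 0.34, limma adjusted p = 0.0077), but its change was -0.46 in M3 and -0.43 in M4. Rpl41, one of the shortest coding genes, ranged from -1.72 in F1 to 3.32 in M2 (limma adjusted p = 0.042), and its IN values ran from 17.9 to 118. Its call was lost in most alternatives.

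**Figure D5:**
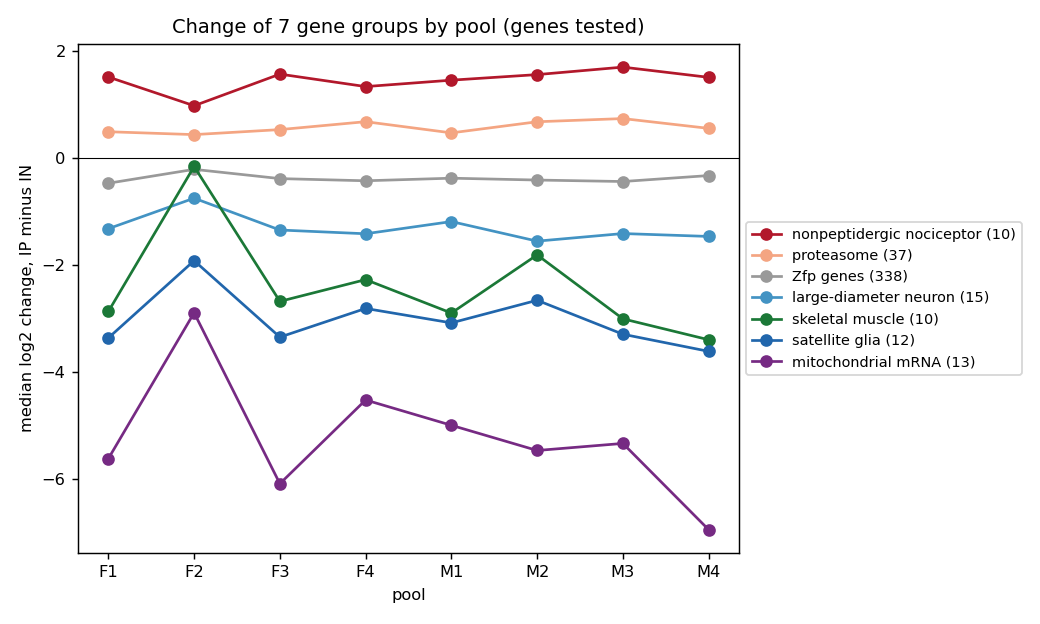
Median log2 change (IP minus IN) in each of the 8 pools for 7 groups of genes, 1 line a group. Skeletal muscle, satellite glia and mitochondrial mRNA are nearest to 0 in F2.

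Few genes differed between the sexes in their change. The interaction of sex and fraction, female minus male, passed for 3 of 16099 genes (0.0186%), with 448 at an unadjusted p under 0.05 in limma, and for 0 to 6 genes when one pool was left out (0 without F3 and 0 without M1). Ep400, an ATPase of a histone exchange complex, fell by 1.31 on the log2 scale in male and by 0.35 in female pools, an interaction of 0.96 ± 0.09 (limma adjusted p = 0.0104). Its values were at -1.42 to -1.25 in the male pools and at -0.52 to -0.27 in the female pools, with no overlap. The other genes, Kdm5d and Uty, lie on the Y chromosome and were at or near 0 in females, so their interaction rests on the male fall alone, by 0.96 and 1.09 on the log2 scale.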

How the data were processed

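RNA-seq was run on 16 libraries, an IN and an IP library from each of 8 pools. The deposited values, headed Coverage, were read as TPM that the authors computed, because each library sums to 1000000. Read depth is therefore unknown. FastQC, STAR 2.2.1, StringTie 1.3.5 and GRCm38.p5 were used, per the submitters' processing notes. No source used here names the annotation release or strandedness of the counting, so overlapping and antisense genes cannot be told apart.

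Entries of one gene ID were summed and ERCC entries left out. Gene types and lengths came from GENCODE M21. TPM were scaled by the median of ratios over the genes with a mean of at least 1 in IN or IP, and 1 was added before log2. Tests were made with limma 3.58.1 under R 4.3.3 (lmFit with a term for the pool, eBayes with trend, two-sided, Benjamini-Hochberg, threshold 0.05). Python 3.11.15, pandas 2.3.3, numpy 2.4.6 and matplotlib 3.10.9 did the rest. Shares used an exact paired sign-flip test over the 8 pools. In data simulated for IP against IN over 16099 genes, 92% of 50 genes changed by a log2 of 1 were recovered. Few genes were changed there, the noise was normal and the scaling step was left out, whereas 79.4% of genes were called in the data. The simulation therefore cannot show how well calls hold where they depend on the scaling.

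IN and IP of a pool share animals, per the series design text. Deviations from the group mean correlated across genes between them by 0.01 to 0.41. In F1 and M1, at 0.01 each, the IN library correlated more with the IP library of another pool of that sex than with its own. The members, the 67 gene lists and the tests were chosen with earlier results of these data known. The rule for named genes was the 15 largest rises and falls without overlap, up to 6 members of each list, the 10 most abundant genes of each fraction, the 10 most abundant with a near-equal level, the 10 with the widest spread over pools, and up to 3 of each noncoding class. Neat1, Miat, Snord17, Rplp2, Rpl38, Rps21, Fau and the genes of the interaction were added after their values were seen. Some genes that the rule names are not reported here.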

Additional observations from a re-analysis of the deposited data

Results flagged for a closer look

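Pool F2 stood apart from the other 7 pools for 25 of the 142 genes named here, and in each of these its change was nearest to 0. Chance alone flags about 1 in 20 independent groups of normal values. The genes and lists here share the same 8 pools, and some genes were chosen for their spread, so this rate is no baseline for them. Flagged were 26 of the 142 genes, 7 of the 67 lists and 2 of 7 RNA classes. A flag means that the gap between the outermost pool and the next exceeded Dixon's critical share of the range of 8 values.

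Among genes that rose, the log2 change in F2 was 1.03 for Scn10a, 1.16 for Mrgpra3, 1.07 for Mrgprx1, 1.07 for F2rl2, 1.38 for Tmem45b, 0.61 for Pdia3, 1.16 for Scg2 and 1.06 for Scg3. Among genes that fell, it was -1.99 for Qk, -1.998 for Timp3, -2.15 for Lox, -2.06 for Pmp2, -2.07 for Apod, -1.91 for Selenop, -1.23 for Copz2, -1.01 for Wipi1, -1.64 for Mt2, -0.80 for Acta1 and -0.38 for Ifrd1. It was -0.79 for Kmt2e, -1.37 for Nr1d2 and -1.68 for Hlf, and among noncoding RNAs -0.57 for Snord17, -2.58 for mt-Tl1 and -1.01 for Rian.

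The F2 medians also stood apart for large-diameter neuron genes (-0.74), granulocyte and erythrocyte genes (-2.19), the oligosaccharyltransferase (0.39), dense core vesicles (0.53), small nucleolar RNAs (-0.24) and TEC entries (-0.56). Ppp1r15b stood apart in M3 (-0.83), cell cycle genes in M2 (0.23), mitochondrial import in M3 (0.63) and calcium signalling in M1 (-0.26).

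The change of 3 genes differed between the sexes by the interaction test, as female minus male. It was 0.96 for Ep400, 0.96 for Kdm5d and 1.09 for Uty.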

How the results depend on the processing

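Without scaling 14623 genes were higher and 935 lower (12570 and 142 by 2-fold or more), against 6514 and 6269 (501 and 2099 by 2-fold or more) in the report. Relative to the median gene the unscaled fit gave 6176 higher and 6336 lower. With no filter on low values 12841 genes were lower. The count of genes higher by 2-fold or more was 206 with protein-coding total scaling, 810 and 254 with 0.1 and 5 added, 933 with no filter and 301 with a filter at a mean of 5. These 2-fold counts are not relative to the median gene, which protein-coding total scaling moved by -0.19 on the log2 scale. The count lower by 2-fold or more was 747 with 5 added and 1087 with the filter at 5. Without the replicate block 6287 genes were higher and 6176 lower, within 1.5 times of the blocked counts. Leaving out one pool gave 6281 to 6519 higher and 6123 to 6274 lower. The interaction count of 3 became 11 without scaling, 1 with quantile normalization, 0 with no filter, and 0 to 6 with one pool left out. Without the 10 most abundant entries the share of small nucleolar RNAs in IP minus IN became -0.161 percentage points (exact p = 0.0156), that of long intergenic RNAs -0.59, that of other long noncoding RNAs -0.0854 and that of antisense RNAs -0.0015, each of which was above 0 with all entries. Of the genes named, 4 turned direction with a call on one side: without scaling relative to the median gene Nefl was at 0.41 and Atp1b1 at 0.40, and with quantile normalization Ckb was at -0.43 and Prkar1a at -0.35. With the filter at 5 Prkar1a was at -0.12, a value not taken relative to the median gene, which this filter moved by -0.11. Over 142 genes and 17 alternatives, 2350 of 2400 values kept direction and call. Causes were not tested. Depth is unknown, so its limits could not be given.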

Other observations

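Other gene groups moved little or both ways. Of 23 genes of the signal recognition particle and the translocon 12 rose and 4 fell (median 0.25), against 15 and 0 without scaling and 10 and 7 with quantile normalization. Sec61b, a subunit of the protein channel of the endoplasmic reticulum, rose from a median of 10.1 to 21.1, and Tram1, which sits beside that channel, fell from 23.2 to 16.1, a call that was lost without scaling (-0.18, limma adjusted p = 0.215). Of 15 chaperones of the endoplasmic reticulum 11 rose and 1 fell (median 0.27, and 5 and 5 with a median of -0.07 under quantile normalization), with Pdia3 from 84.7 to 166. Of 22 genes of ribosome biogenesis 14 rose and 3 fell (median 0.22), and Nhp2, part of the box H/ACA particles, rose from 10.1 to 18.6. Of 22 genes of the citric acid cycle 8 rose and 3 fell (median 0.08, and 1 and 16 with a median of -0.31 under quantile normalization, but 18 and 2 without scaling), and Suclg2 fell from 2.90 to 0.708.

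Nuclear pore genes gave 6 higher and 11 lower of 26 (median -0.10, and 7 and 6 with a median of 0.02 without scaling, or 11 and 8 with quantile normalization), and Nup210 fell from a median of 2.73 to 0.731. Of 15 host genes of small nucleolar RNAs 8 fell and 3 rose (median -0.24), with Snhg18 from 5.01 to 0.838. In the MAP kinase cascade 13 of 22 genes rose and 5 fell (median 0.22, and 9 and 10 with a median of -0.02 under quantile normalization). Mapk3, which encodes ERK1, rose from 186 to 351, and Dusp6, a phosphatase of ERK, fell from 9.97 to 5.45. Endothelial and mural genes were lower, 9 of 10 and 6 of 6 (medians -1.55 and -1.27).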
